A study of Mus musculus with 30 samples.

Results

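The immediate early genes Fos, Fosb, Fosl2, Jun, Junb, Egr1, Egr2, Arc and Nr4a1 were followed in mouse cortex with and without the T-box transcription factor Tbr1. A gene was read from the probe sets whose only gene symbol was its own, and of several the one with the highest mean signal was used. All 9 members were measured on both array types, among 16553 genes that both tables named. The KO groups were homozygous Tbr1 null mice bred from heterozygous parents, the WT groups were wild type, and every animal was on the CD1 background. Tissue came from neocortex at embryonic stage E14.5, with 3 KO and 3 WT arrays, and from frontal, parietal and occipital brain tissue at postnatal stage P0.5, with 4 KO and 4 WT arrays for each of the 3 regions. In these 30 bulk samples, fewer cells of a type and less RNA per cell cannot be told apart.

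Immediate early genes are transcribed within minutes of a rise in calcium or of growth factor signalling, from factors such as CREB and SRF that are already in the cell, so that no new protein has to be made first. In cortex they are best known as markers of recently active neurons, and their products switch on a second wave of late response genes. FOS and JUN proteins pair to form the AP-1 transcription factor, EGR proteins are zinc finger factors, NR4A1 is an orphan nuclear receptor, and ARC acts at synapses in the removal of AMPA receptors from the membrane.

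RefSeq promoters were at hand for 7 of the 9 members. Those of Jun and Nr4a1 are shown because these genes gave the calls described here, that of Fosl2 because this gene varied most between arrays of a group, and that of Fos as the standard activity marker. Each is the 250 bases before the gene's start on GRCm38.p6, given on the gene's strand, namely chr4:95052223-95052472 (minus strand) for Jun, chr5:32136222-32136471 (plus strand) for Fosl2, chr12:85473640-85473889 (plus strand) for Fos and chr15:101266596-101266845 (plus strand) for Nr4a1. Capitals mark matches, on either strand, to the CREB core TGACG, to the AP-1 and CRE-like site TGACNTCA, and to the MEF2 site.
Jun: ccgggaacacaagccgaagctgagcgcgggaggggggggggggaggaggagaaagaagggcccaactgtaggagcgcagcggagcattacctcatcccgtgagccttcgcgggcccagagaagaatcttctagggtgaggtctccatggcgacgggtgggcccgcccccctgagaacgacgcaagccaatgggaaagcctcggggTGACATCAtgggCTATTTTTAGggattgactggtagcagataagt
Fosl2: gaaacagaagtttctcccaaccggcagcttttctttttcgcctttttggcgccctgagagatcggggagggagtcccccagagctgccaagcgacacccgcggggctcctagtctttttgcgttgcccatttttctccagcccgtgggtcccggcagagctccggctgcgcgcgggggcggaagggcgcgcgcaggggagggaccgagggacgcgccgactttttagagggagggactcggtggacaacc
Fos: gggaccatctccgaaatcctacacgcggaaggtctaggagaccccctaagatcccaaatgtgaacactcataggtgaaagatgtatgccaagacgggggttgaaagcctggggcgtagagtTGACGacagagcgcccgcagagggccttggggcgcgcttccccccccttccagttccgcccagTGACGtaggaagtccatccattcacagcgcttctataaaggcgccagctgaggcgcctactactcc
Nr4a1: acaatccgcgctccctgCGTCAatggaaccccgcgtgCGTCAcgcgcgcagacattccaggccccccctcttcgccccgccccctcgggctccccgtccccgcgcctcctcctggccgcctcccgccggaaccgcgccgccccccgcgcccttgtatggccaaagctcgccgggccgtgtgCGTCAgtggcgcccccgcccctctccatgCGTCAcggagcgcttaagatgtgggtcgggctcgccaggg
The CREB core TGACG lay in at least 1 window of 5 of the 7 members (Fos, Fosb, Junb, Egr2 and Nr4a1), against 17.8% of 32851 promoter windows of the same length. Members are counted by gene and the shares by window, here and below, so these are unlike counts. Egr2 had several windows, not all with the site. Fos had it 129 and 66 bases before its start, and Nr4a1 had it at 4 positions between 233 and 40 bases before its start. TGACNTCA, whose middle base may make it the full CRE, was found in Jun, 45 bases before the start, and in 7.49% of all windows. The MEF2 site, also in Jun, lay 33 bases before the start and was present in 0.508% of all windows. The serum response element (CArG box) was found in Egr2 and in 1.47% of windows. No member had the full CRE TGACGTCA (1.55% of windows), which contains the CREB core, the AP-1 site TGANTCA (6.75%), the T-box sequence AGGTGTGA (1.12%) or its shorter core GGTGTGA (3.33%). These matches describe letters in a window and say nothing of what binds there.

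Signals are log2 values as deposited, so that a difference of 1 is a doubling, and a gene's levels were compared between groups of the same stage only. The cortical excitatory neuron markers averaged 7.76 to 8.22 in E14.5 KO arrays and 8.37 to 8.89 in E14.5 WT arrays, and 9.56 to 9.72 in P0.5 KO arrays and 9.56 to 9.81 in P0.5 WT arrays. Tbr1 itself read 8.69, 7.23 and 7.57 in E14.5 KO, against 9.36, 8.89 and 9.11 in E14.5 WT, and at P0.5 it fell by 0.63, 0.58 and 0.84 in frontal, parietal and occipital KO tissue with no overlap between genotypes. Whether its probes lie inside the deleted part is not given, so the fall is a limited check of the labels. The mean of 3 Y-linked genes lay at 5.09 to 5.99 in the 4 frontal KO arrays and at 8.99 to 9.15 in the 4 frontal WT arrays, so that sex and genotype cannot be told apart within frontal tissue, while the other P0.5 groups except occipital WT held both high and low arrays. The Y-linked group means were 5.39, 7.23 and 8.35 in frontal, parietal and occipital KO, against 9.04, 8.31 and 9.32 in WT. KO and WT averaged over the regions were therefore also unequal in this level. Frontal WT replicate 4 stood apart with the highest meninges level (9.85) and blood vessel level (9.13) of its group.

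Across the P0.5 arrays the pattern was narrow. Jun was the only member that passed the main test between KO and WT, higher in frontal KO tissue and in KO tissue averaged over the regions. Nr4a1 was higher in WT frontal than in WT occipital tissue. The other 7 members passed the test in none of the 11 comparisons, and at E14.5 no member passed it. Fosl2 had the widest gaps without passing it, and it did pass when the frontal or the parietal arrays were fitted alone.

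**Figure D1:**
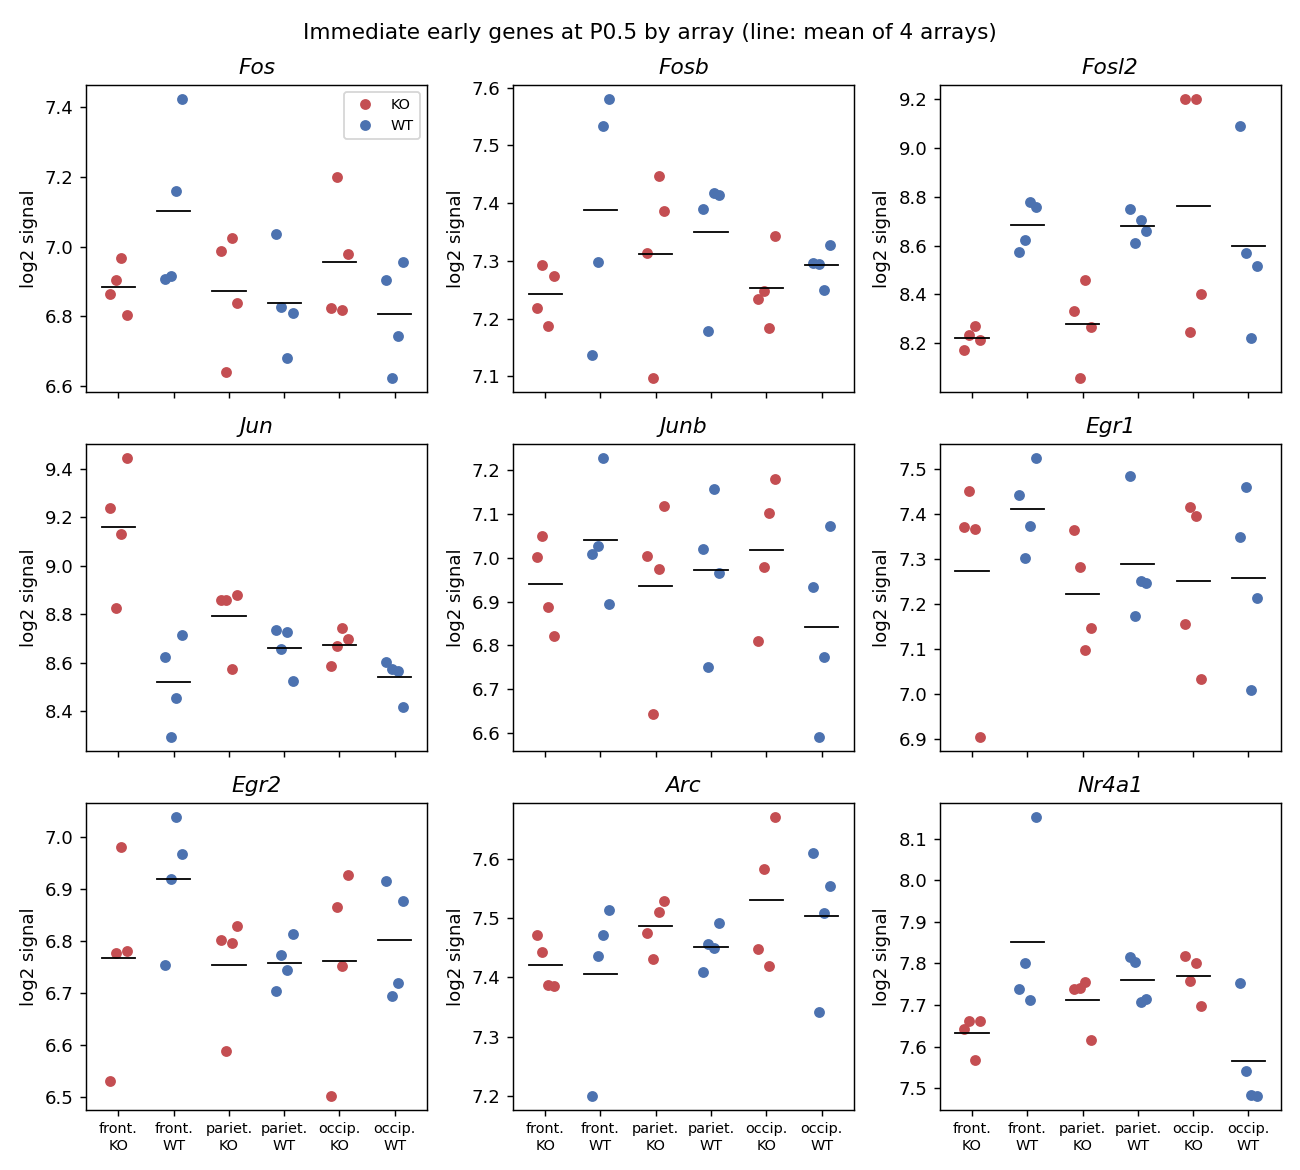
Log2 signal of each immediate early gene on the 24 P0.5 arrays, in KO (red) and WT (blue) tissue of the frontal, parietal and occipital regions; points are arrays, black lines are means of 4, and each panel has its own axis. The frontal KO arrays of Jun (8.83 to 9.45) all lie above the frontal WT arrays (8.29 to 8.71), and those of Fosl2 (8.17 to 8.27) all lie below the frontal WT arrays (8.57 to 8.78).

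Among the JUN members, Jun encodes the main DNA-binding partner of FOS proteins. Its log2 signal was 9.24, 8.83, 9.13 and 9.45 in frontal KO tissue, against 8.63, 8.29, 8.46 and 8.71 in frontal WT tissue. Every frontal KO array lay above every frontal WT array, and 12.9% of all genes had no overlap there in either direction. The difference was 0.64 (SE 0.10, 95% interval 0.43 to 0.85, 1.56-fold), with an adjusted p of 1.89e-04 in limma's moderated test with Benjamini-Hochberg adjustment over all genes. In that comparison 7.52% of 19938 genes were called at an adjusted p under 0.05, and 1 of the 9 members was. The call held when each of the 8 arrays was left out in turn (highest adjusted p 0.0017) and in the other 9 alternatives, with differences from 0.54 to 0.80 over all 17. The highest adjusted p was 0.042, in the model that held the Y-linked level (difference 0.57). In frontal tissue that level does not overlap between genotypes, so the frontal arrays alone cannot separate sex from genotype. The model takes 1 Y-linked slope for all 6 groups, and whether that slope holds in frontal tissue was not tested.

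In parietal tissue Jun read 8.86, 8.86, 8.58 and 8.88 in KO and 8.73, 8.66, 8.73 and 8.53 in WT. The groups overlapped, through KO replicate 3, and the difference of 0.13 (95% interval -0.08 to 0.34) gave an adjusted p of 0.867. Occipital tissue gave 8.59, 8.67, 8.74 and 8.70 in KO and 8.60, 8.57, 8.57 and 8.42 in WT. Here 3 KO arrays were above all WT arrays and replicate 1 was not, with a difference of 0.13 (95% interval -0.08 to 0.35, adjusted p 0.697). The order of the group means ran from frontal KO (9.16 ± 0.26) through parietal KO (8.79 ± 0.15), occipital KO (8.67 ± 0.07), parietal WT (8.66 ± 0.10) and occipital WT (8.54 ± 0.08) to frontal WT (8.52 ± 0.19; SD, n = 4 each), and the steps from frontal KO to parietal KO and from parietal WT to occipital WT exceeded the SDs of both their neighbours while the others did not. Averaged over the 3 regions Jun was 0.30 higher in KO (SE 0.06, 95% interval 0.18 to 0.42, adjusted p 0.00325). The 4 KO and 4 WT means did not overlap. Of all genes, 7.46% were called in that comparison and 12.5% had no overlap. With the mean of the Y-linked genes in the model the Jun difference was 0.27 with an adjusted p of 0.0557, which ended the call.

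The larger gap in frontal tissue was put to a test of its own. The KO minus WT difference of Jun was 0.50 greater in frontal than in occipital tissue (95% interval 0.20 to 0.81, adjusted p 0.114) and 0.51 greater than in parietal tissue (95% interval 0.21 to 0.81, adjusted p 0.42). Neither passed the threshold, and 0.416% and 0.01% of genes did. The first of these passed without frontal KO replicate 2 (adjusted p 0.0294), and the comparisons share the frontal arrays. Between WT regions Jun differed by -0.02 (frontal minus occipital), -0.14 (frontal minus parietal) and 0.12 (parietal minus occipital), with adjusted p from 0.525 to 0.916.

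Markers of other cells moved in the comparisons where Jun was called, and some also moved where it was not. The astrocyte list averaged 8.50 to 9.11 in frontal KO arrays and 7.99 to 8.83 in frontal WT arrays, with 4 of 6 genes called higher. The microglia list averaged 7.72 to 8.09 in frontal KO arrays and 7.19 to 7.88 in frontal WT arrays, with 2 of 7 called higher and all 7 positive. The blood vessel list averaged 7.71 to 8.39 in frontal KO arrays and 8.02 to 9.13 in frontal WT arrays, with 1 of 7 called lower. Over the regions, where Jun was also called, 5 of 6 astrocyte, 4 of 7 radial glia and 3 of 7 microglia genes were called higher. There 1 of 7 blood vessel genes was called lower. Of all genes, 7.52% were called in frontal tissue and 7.46% over the regions. In occipital tissue, where Jun was not called, the astrocyte list averaged 9.25 in KO and 8.78 in WT without overlap, with 1 of 6 genes called higher. The median astrocyte KO minus WT difference was 0.57 in frontal, 0.25 in parietal and 0.56 in occipital tissue. For microglia genes these medians were 0.32, 0.15 and 0.255. With group means removed, Jun correlated over the 24 arrays with the microglia level (Pearson r 0.532), the oligodendrocyte lineage level (0.515) and the astrocyte level (0.473), as a description of arrays that may share animals. No marker has a signal of 0 on this scale, and the part of these cells in the Jun result was not tested.

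Junb, a JUN relative with weaker activating power, spanned 6.82 to 7.05 in frontal KO and 6.90 to 7.23 in frontal WT, 6.64 to 7.12 in parietal KO and 6.75 to 7.16 in parietal WT, and 6.81 to 7.18 in occipital KO and 6.59 to 7.07 in occipital WT. All of these ranges overlap between genotypes. The differences were -0.10, -0.04 and 0.18 with adjusted p of 0.566, 0.991 and 0.62, and the intervals of all 3 lay between -0.33 and 0.41.

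Among the FOS members, Fosl2 encodes FRA2, an AP-1 subunit without the strong activation domain of FOS. Its log2 signal was 8.17, 8.23, 8.27 and 8.21 in frontal KO tissue, against 8.57, 8.62, 8.78 and 8.76 in frontal WT tissue. Parietal tissue gave 8.33, 8.06, 8.46 and 8.26 in KO, against 8.75, 8.61, 8.71 and 8.66 in WT. In both regions all KO arrays lay below all WT arrays. In the frontal comparison 7.52% of genes were called and 12.9% had groups that did not overlap, and in the parietal one 1.81% and 7.41%.

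The frontal difference of Fosl2 was -0.46 (95% interval -0.81 to -0.12, adjusted p 0.0843) and the parietal one -0.40 (95% interval -0.75 to -0.06, adjusted p 0.377), so neither passed. Occipital tissue stood apart in its spread, with 9.20, 8.25, 9.20 and 8.40 in KO and 9.09, 8.57, 8.22 and 8.51 in WT. KO replicates 1 and 3 and WT replicate 1 were high there and the other 5 arrays were not, and the difference was 0.16 (95% interval -0.18 to 0.51, adjusted p 0.775), where 1.34% of genes were called. The P0.5 fit shares 1 estimate of spread among the 6 groups, and the occipital SDs of 0.51 in KO and 0.36 in WT enter it beside 0.04 in frontal KO, 0.10 in frontal WT, 0.17 in parietal KO and 0.06 in parietal WT. Fitted on the 8 arrays of a region alone, the same differences were called, with adjusted p of 0.00538 in frontal and 0.0306 in parietal tissue.

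Over the regions Fosl2 was -0.23 (95% interval -0.43 to -0.04, adjusted p 0.157). Its KO minus WT difference was lower in frontal than in occipital tissue (-0.63, 95% interval -1.11 to -0.14, adjusted p 0.187) and lower in parietal than in occipital tissue (-0.57, 95% interval -1.05 to -0.08, adjusted p 1), and neither passed, with 0.01% of genes called in the second. After removal of group means, Fosl2 correlated over the 24 arrays with the level of the other immediate early genes listed below (r 0.644). Its correlation with the thalamus marker level was 0.568. That level was 7.54 to 7.84 in occipital KO arrays and 7.34 to 8.57 in occipital WT arrays, with the highest value in WT replicate 1, and its part in the Fosl2 spread was not tested.

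Fos, the founding AP-1 subunit, read 6.86, 6.91, 6.97 and 6.80 in frontal KO and 6.91, 6.92, 7.16 and 7.42 in frontal WT tissue. The groups overlapped, with WT replicates 3 and 4 above all KO arrays, and the difference of -0.22 (95% interval -0.45 to 0.02) had an adjusted p of 0.215. The parietal values were 6.99, 6.64, 7.02 and 6.84 in KO and 7.04, 6.83, 6.68 and 6.81 in WT, a difference of 0.03 (95% interval -0.20 to 0.27, adjusted p 0.993). In occipital tissue Fos read 6.82, 7.20, 6.82 and 6.98 in KO and 6.90, 6.62, 6.74 and 6.96 in WT, a difference of 0.15 (95% interval -0.09 to 0.38, adjusted p 0.693). The groups overlapped in both regions. Fosb, a close FOS relative whose short form builds up under repeated stimulation in adult brain, differed by -0.14, -0.04 and -0.04 in frontal, parietal and occipital tissue, with adjusted p of 0.28, 0.983 and 0.911. Its arrays spanned 7.10 to 7.45 in KO and 7.14 to 7.58 in WT.

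Egr1 and Egr2 encode zinc finger factors, of which EGR1 is induced by synaptic activity and EGR2 is also known from hindbrain segmentation and myelinating Schwann cells. Egr1 spanned 6.91 to 7.45 over the 12 KO arrays and 7.01 to 7.52 over the 12 WT arrays of P0.5, and its differences were -0.14, -0.07 and -0.01 in frontal, parietal and occipital tissue (adjusted p 0.428, 0.97 and 0.988). Frontal KO replicate 4, at 6.91, lay well below the other frontal KO arrays, at 7.37 to 7.45. Egr2 spanned 6.50 to 6.98 in KO and 6.69 to 7.04 in WT, with differences of -0.15, -0.00 and -0.04 (adjusted p 0.295, 0.998 and 0.918).

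Arc had the smallest spread of the members at P0.5. Its arrays spanned 7.39 to 7.67 in KO and 7.20 to 7.61 in WT. The KO minus WT difference was 0.02 in frontal, 0.03 in parietal and 0.03 in occipital tissue, with 95% intervals inside -0.14 to 0.19 and adjusted p from 0.901 to 0.982.

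Nr4a1, also called Nur77, was lower in every frontal KO array, at 7.64, 7.66, 7.57 and 7.66, than in any frontal WT array, at 7.74, 7.80, 7.71 and 8.15. WT replicate 4 was the highest of the 8, and 12.9% of all genes had no overlap in that comparison. The difference of -0.22 (95% interval -0.39 to -0.05) had an adjusted p of 0.0951 and did not pass. Parietal tissue gave 7.74, 7.74, 7.76 and 7.62 in KO and 7.81, 7.80, 7.71 and 7.71 in WT, and the groups overlapped (difference -0.05, adjusted p 0.971). In occipital tissue the sign was the other way, with 7.82, 7.76, 7.80 and 7.70 in KO and 7.75, 7.54, 7.48 and 7.48 in WT, of which WT replicate 1 reached into the KO range. That difference was 0.20 (95% interval 0.04 to 0.37, adjusted p 0.32), and the test of frontal against occipital gave -0.42 (95% interval -0.66 to -0.18, adjusted p 0.1), which passed when occipital WT replicate 1 was left out (adjusted p 0.0409).

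In WT tissue Nr4a1 was 0.29 higher in frontal (7.85 ± 0.20) than in occipital tissue (7.56 ± 0.13; SD, n = 4 each), with an SE of 0.08, a 95% interval of 0.12 to 0.45 and an adjusted p of 0.039, although the groups overlapped. In that comparison 6.03% of genes were called and 1 of the 9 members was. The call was lost without frontal WT replicate 4 (0.19, adjusted p 0.17) or without occipital WT replicate 2, 3 or 4 (adjusted p 0.11, 0.124 and 0.0778), in a fit of the 8 arrays alone (adjusted p 0.182), with the replicate number as a block in that fit (adjusted p 0.114), and with the olfactory receptor level as a covariate (0.22, adjusted p 0.222). Frontal WT replicate 4, the highest Nr4a1 array, was also the highest of its group in meninges and blood vessel markers. Its mean olfactory receptor signal (5.64) was the highest of the 24 arrays. Nr4a1 correlated with the meninges and blood vessel levels over these arrays after removal of group means (r 0.523 and 0.581). With the receptor level r was 0.368, and with the other immediate early genes listed below it was 0.64. The part of the meninges and blood vessel levels in the result was not tested. Between the other WT regions no member passed the test in limma. There 0.171% of genes were called between WT frontal and parietal and 0.451% between WT parietal and occipital tissue, and at an unadjusted p under 0.05 the members were 1 (Fos) and 1 (Nr4a1), against 12.9% and 7.66% of all genes.

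**Figure D2:**
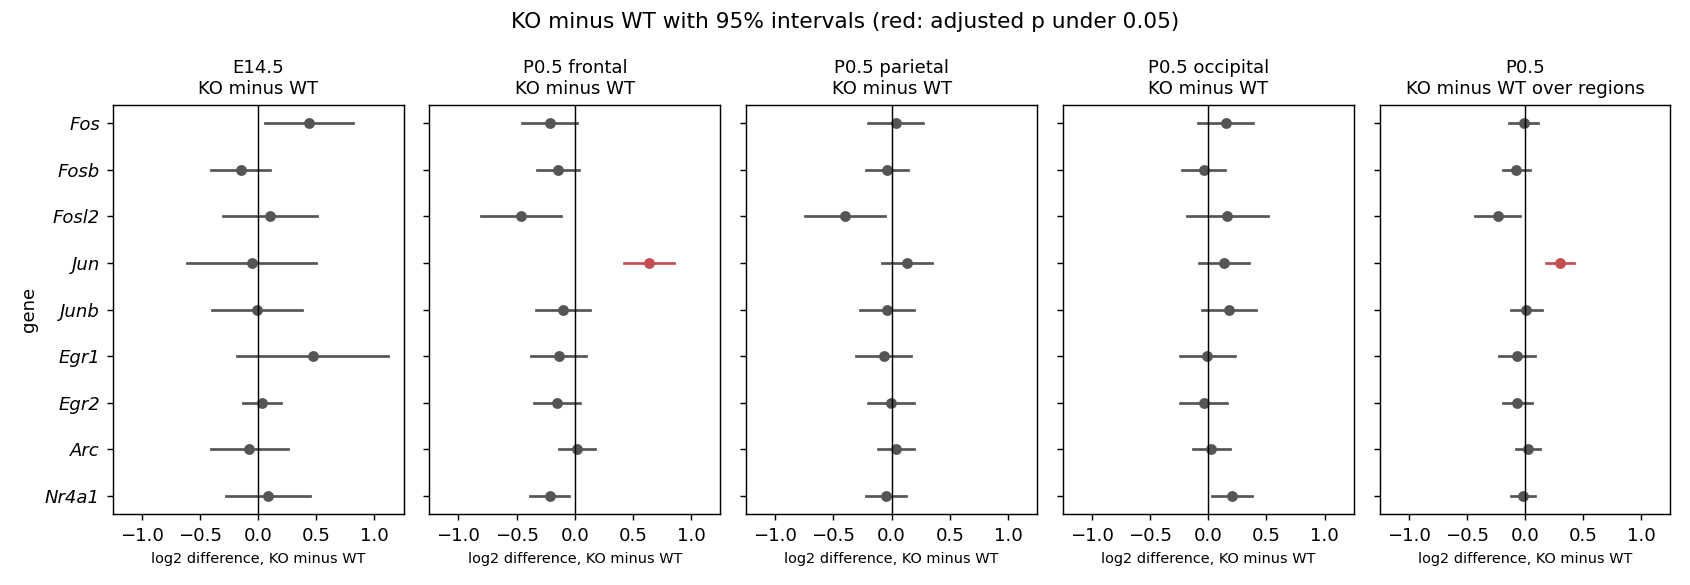
Log2 difference, KO minus WT, of the 9 genes (rows) in 5 comparisons (panels); points are fitted differences, bars are 95% intervals and red marks an adjusted p under 0.05. Red appears for Jun in frontal tissue (0.64) and over the regions (0.30), and the frontal and parietal intervals of Fosl2 lie below 0 without passing the adjusted threshold.

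Read as a group, the 9 members had a median KO minus WT difference of -0.14 in frontal, -0.04 in parietal, 0.13 in occipital tissue and -0.02 over the regions, beside -0.03, -0.01, 0.01 and -0.01 over all genes. In frontal tissue 7 of the 9 differences were negative, in parietal 6, and in occipital 3. At an unadjusted p under 0.05 there were 3 members in frontal, 1 in parietal (Fosl2) and 1 in occipital tissue (Nr4a1), against 27.5%, 9.32% and 10.8% of all genes, and limma called no member in the last 2 regions. For the tests of the difference between regions the counts were 0 called and 4, 1 and 2 with an unadjusted p under 0.05, for frontal against occipital, frontal against parietal and parietal against occipital, against 20.1%, 8.13% and 3.93% of all genes.

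At E14.5 Fos was the member whose groups did not overlap, with 5.28, 4.95 and 4.63 in KO and 4.57, 4.45 and 4.53 in WT. The KO arrays spread widely and replicate 3 lay just above the WT arrays. The difference of 0.44 (95% interval 0.06 to 0.82) had an unadjusted p of 0.0295 and an adjusted p of 0.858 in limma's test. No gene of 18194 (0%) was called at this stage, 5.76% had an unadjusted p under 0.05, and 11.2% had groups that did not overlap. Array weights gave 2 calls, and the fits without KO replicate 1 and without KO replicate 3 gave 2 and 30. The deposited signals carry no detection calls, so whether a member lay above background on these arrays is not known.

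Egr1 was highest in 1 array, with 6.91, 6.01 and 5.94 in E14.5 KO and 5.58, 5.90 and 5.98 in E14.5 WT, and its difference of 0.47 had a 95% interval of -0.18 to 1.12 (adjusted p 0.907). Jun read 10.26, 10.13 and 9.92 in KO and 10.44, 10.40 and 9.64 in WT, and WT replicate 3 was the lowest of the 6 (difference -0.06, adjusted p 0.984). Nr4a1, Arc, Egr2, Junb and Fosb differed by 0.09, -0.07, 0.04, -0.01 and -0.15, with adjusted p from 0.953 to 0.997. For Fosl2 the 2 probe sets disagreed. The one used gave 6.21, 5.91 and 5.90 in KO and 5.70, 6.13 and 5.88 in WT, a difference of 0.10 (adjusted p 0.968), and the other gave 7.31, 5.43 and 5.89 in KO and 5.82, 4.47 and 5.06 in WT, a difference of 1.10. On the second probe set each KO array was above the WT array of the same number and the groups overlapped. The 2 probe sets of Jun (-0.06 and -0.04) and of Egr2 (0.04 and -0.03) lay within 0.07 of each other.

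Of the gene lists, that of the members among them, 6 had all E14.5 KO arrays above all WT arrays, as Fos did. In 1 list the KO arrays were all below and in 12 the groups overlapped, with no gene called in any. The list below was that of cortical excitatory neurons, at 7.76 to 8.22 in KO arrays and 8.37 to 8.89 in WT arrays. The meninges list averaged 7.47 to 9.31 in KO arrays and 6.95 to 7.10 in WT arrays (5 of 5 genes positive), and the choroid plexus list 6.99 to 7.52 in KO and 5.87 to 6.75 in WT (4 of 5). The thalamus list averaged 6.21 to 8.22 in KO and 5.72 to 6.09 in WT (4 of 4). The heat shock and stress genes, which encode chaperones and stress response proteins, averaged 7.42 to 7.74 in KO and 7.13 to 7.29 in WT (10 of 12 positive). The astrocyte list (6.59 to 6.70 in KO, 6.31 to 6.57 in WT) and the microglia list (6.42 to 6.98 in KO, 6.12 to 6.41 in WT) did not overlap either. The part of these in the Fos and Egr1 differences was not tested.

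**Figure D3:**
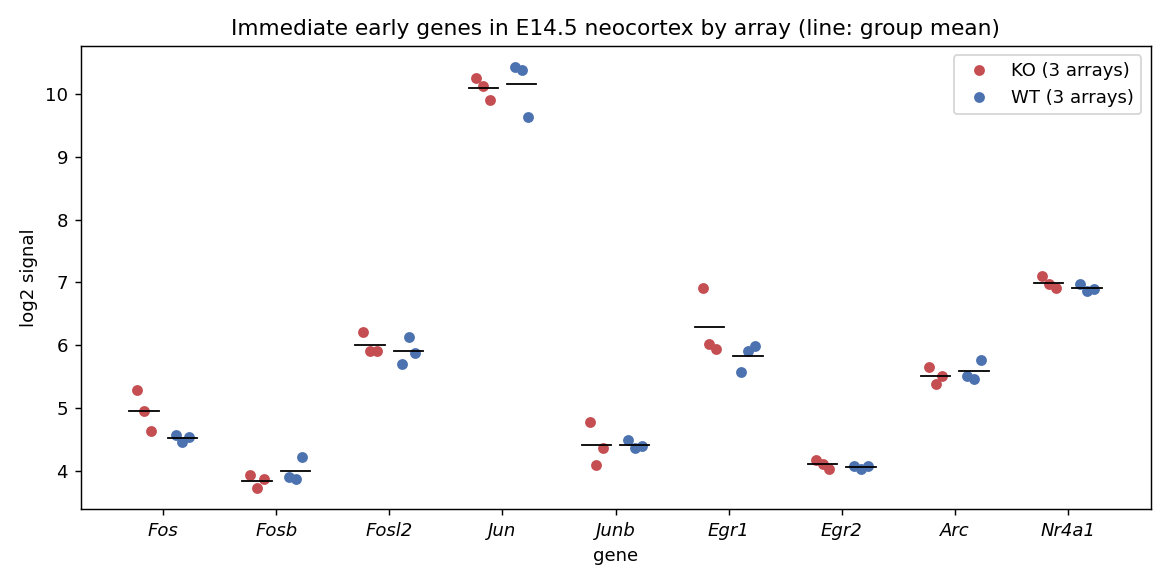
Log2 signal of the 9 immediate early genes in E14.5 neocortex, KO (red) left of WT (blue); points are the 3 arrays of a group and lines are means. The Fos arrays of KO (4.63 to 5.28) lie above those of WT (4.45 to 4.57), and the Egr1 arrays of KO reach 6.91 in a single array.

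The spread between arrays of a group differed between genes, and for Fosl2 between groups and stages. At P0.5 the pooled SD was 0.27 for Fosl2, above 96.7% of genes, 0.17 for each of Egr1, Fos and Junb, 0.15 for Jun, 0.14 for Egr2, 0.12 for Fosb, 0.11 for Nr4a1 and 0.09 for Arc, below all but 11.5% of genes. The median over all genes was 0.14. At E14.5 it was 0.41 for Egr1, 0.34 for Jun, 0.25 for Junb, 0.23 for Fos, 0.20 for Fosl2, 0.16 for Fosb, 0.15 for Arc, 0.08 for Nr4a1 and 0.06 for Egr2, against a median of 0.19.

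The members did not vary as one block. With group means removed, the 36 pairs of members had a median Pearson correlation of 0.174 over the 24 P0.5 arrays, with 16 pairs below 0 and a range from -0.335 (Junb and Nr4a1) to 0.6 (Fosb and Arc). The 5 pairs above 0.5 joined Fos, Fosb, Arc and Egr2. Jun and Fosl2 correlated with none of these above 0.16. Junb correlated with Fosb, Egr2 and Arc at 0.464, 0.46 and 0.445, and with Fos at 0.275. The mean level of the other immediate early genes listed below correlated with Fosl2 at r 0.644, Nr4a1 at 0.64 and Egr1 at 0.586. For Fosb, Fos, Junb, Egr2, Arc and Jun the values were 0.348, 0.347, 0.14, 0.051, 0.045 and -0.141. By the rule for likeness, the genes whose deviations followed Fos most closely were Olfr645 (r 0.936), Olfr54 (0.907), Olfr140 (0.907), Iqank1 (0.901) and Cd300c2 (0.891), and those for Arc were Gm5134 (0.857), Ly6m (0.831), Gm973 (0.83), Olfr988 (0.822) and Flt3 (0.819). Olfactory receptor genes encode odorant receptors of nasal sensory neurons.

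Olfactory receptor genes held the first 3 places for Fos and 1 of the 5 places for Arc. The mean signal of all 1027 of them was therefore set beside each member, a choice made after the likeness values were seen. With group means removed it correlated with Fos at r 0.825 (Spearman 0.82), Fosb 0.716 (0.647), Egr2 0.644 (0.63) and Arc 0.561 (0.547), and with Fosl2 at -0.083 (0.204) and Jun at -0.11 (-0.184). Without the 2 arrays farthest from the median of the receptor level, these were 0.749 for Fos, 0.574 for Fosb, 0.664 for Egr2, 0.38 for Arc, -0.189 for Fosl2 and -0.271 for Jun. For Nr4a1, Egr1 and Junb r was 0.368 (Spearman 0.136), 0.339 (0.352) and 0.338 (0.371). Without those 2 arrays it was -0.078, 0.352 and 0.546. The 24 arrays may share animals and were normalised together, so these are descriptions without a test. With the receptor level as a covariate the frontal difference of Fos moved from -0.22 to 0.05, and that of Jun was 0.61 (adjusted p 0.00364). The receptor genes were taken up for their likeness to Fos, so a shift of Fos with this covariate was partly set by that choice. These values are therefore not a test of what lies behind either difference.

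**Figure D4:**
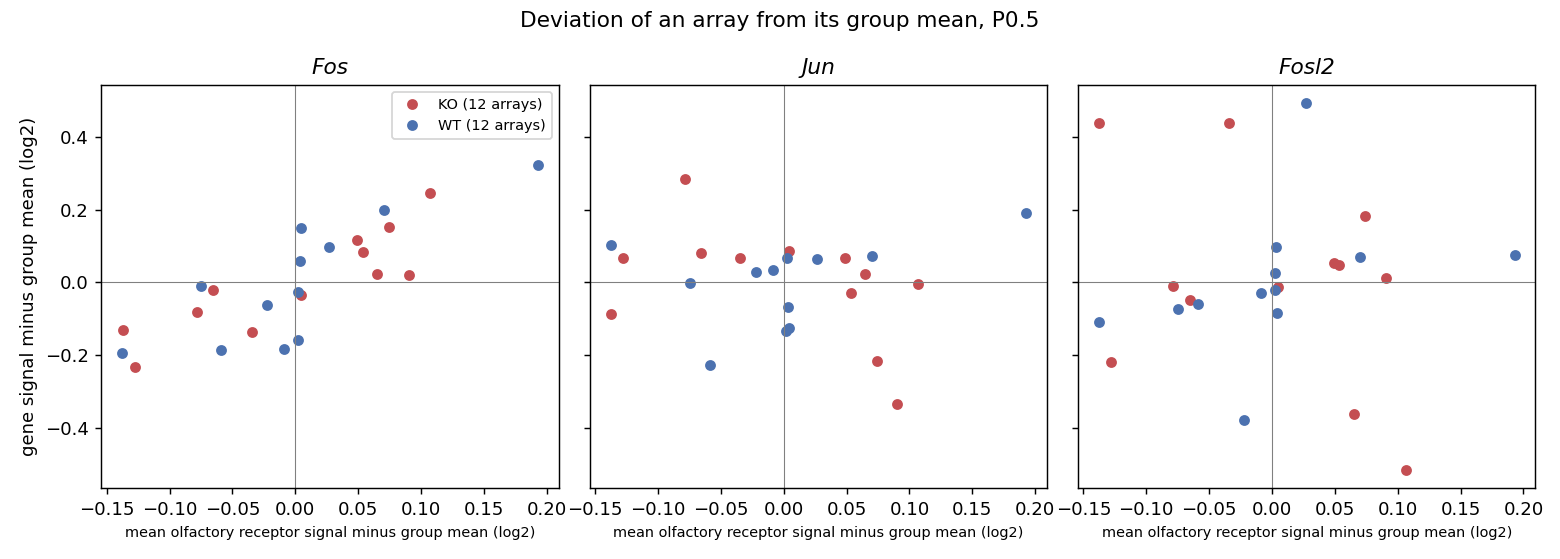
Deviation of each P0.5 array from its group mean (log2), for Fos, Jun and Fosl2 (vertical axes) against the mean of 1027 olfactory receptor genes (horizontal axes), KO red and WT blue. Points rise together for Fos (r 0.825) and show no such slope for Jun (r -0.11) or Fosl2 (r -0.083).

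**Figure D5:**
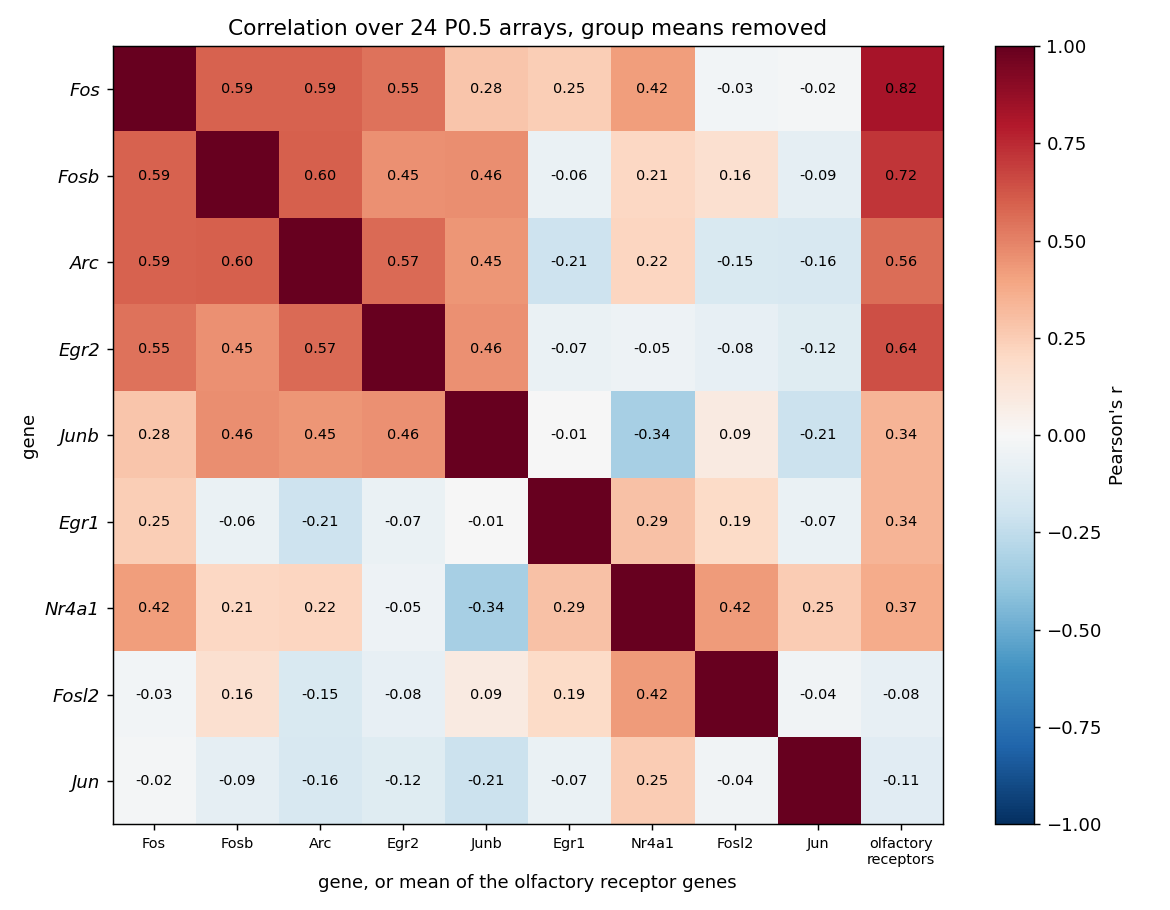
Pearson correlation over the 24 P0.5 arrays, group means removed, between the 9 genes (rows and columns) and with the mean olfactory receptor signal (last column); red is positive and blue negative. Fos, Fosb, Arc and Egr2 form a red corner with r from 0.45 to 0.6, and share it with the olfactory receptor column (0.561 to 0.825). Junb correlates with these genes at 0.275 to 0.464 and with the receptor column at 0.338.

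Genes of the same pathway came from lists chosen for their roles. Of 30 other immediate early genes, 1 was called higher and 1 lower in frontal KO tissue, 1 and 1 in parietal, none in occipital tissue (7 had an unadjusted p under 0.05), and 3 higher and 1 lower over the regions, where 7.52%, 1.81%, 1.34% and 7.46% of all genes were called in either direction. The median differences were -0.09, -0.02, 0.04 and -0.02. Nr4a3, the NR4A relative also known as NOR1, read 8.68, 9.09, 8.92 and 8.53 in parietal KO, against 9.40, 9.69, 9.63 and 9.45 in parietal WT. All parietal KO arrays lay below all WT arrays (-0.74, adjusted p 0.0275), and over the regions Nr4a3 fell by 0.47 (adjusted p 6.94e-04, no overlap). In these comparisons 7.41% and 12.5% of all genes had no overlap. Ier3, a stress-inducible survival factor, read 6.95, 7.02, 6.91 and 6.85 in parietal KO, against 6.39, 6.32, 6.39 and 6.18 in parietal WT. It rose there by 0.61 (adjusted p 9.69e-04) and over the regions by 0.48 (adjusted p 1.14e-04). Over the regions both calls held in all 8 fits that left out the arrays of 1 number, while the frontal call of Nr4a3 (-0.62, adjusted p 0.0374) held in 2 of 8 such fits and its parietal call in 3 of 8, with adjusted p up to 0.137 and 0.133. The frontal call was also lost with the Y-linked and the olfactory receptor covariates (adjusted p up to 0.188). The phosphatase gene Dusp1 (0.18, adjusted p 0.0195) and the clock gene Per1 (0.20, adjusted p 0.0173) also rose over the regions, and these calls held in 5 and 4 of 8 such fits. With the Y-linked covariate both calls were lost, at 0.09 for Dusp1 (adjusted p 0.706) and 0.17 for Per1 (adjusted p 0.346).

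At E14.5 none of the 30 was called, 5 had an unadjusted p under 0.05, and 26 of 30 differences were positive with a median of 0.09, beside 0.06 over all genes. In WT tissue the NR4A relative Nr4a2 was lower in frontal than in occipital tissue (-2.08, adjusted p 3.24e-06), with 7.53 to 8.02 in WT frontal and 9.57 to 10.43 in WT occipital arrays. Its direction was opposite to that of Nr4a1 in the same comparison (-2.08 against 0.29). Dusp6, a phosphatase that acts on ERK, was 0.95 higher in WT frontal tissue (adjusted p 2.2e-05). Both calls held in all 8 fits without 1 array.

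Of 15 late response genes, 3 were called higher and 1 lower in frontal KO tissue, 1 lower in parietal, 1 higher in occipital and 2 in each direction over the regions, with medians of 0.11, -0.07, 0.03 and -0.01, beside the same shares of all genes called. Nrn1, which encodes neuritin, read 8.73, 9.15, 8.76 and 8.84 in frontal KO, against 8.36, 7.64, 7.83 and 7.77 in frontal WT. It rose by 0.97 (adjusted p 8.43e-04) with no overlap, in a comparison where 12.9% of all genes had no overlap. Scg2, which encodes secretogranin II, rose by 0.80 in frontal KO tissue (adjusted p 0.011), and its difference was 1.52 greater in frontal than in occipital tissue (adjusted p 0.00985). The frontal call of Nrn1 was lost with the Y-linked covariate (adjusted p 0.0654), and that of Scg2 held in 12 of 17 alternatives. It was lost with the Y-linked covariate (0.62, adjusted p 0.395), the olfactory receptor covariate (0.39, adjusted p 0.35) and the replicate block (adjusted p 0.0648), and without frontal KO replicate 4 (adjusted p 0.0672) or frontal WT replicate 4 (adjusted p 0.0711). The frontal minus occipital call of Scg2 was lost with both covariates (1.39 and 0.99, adjusted p 0.102 and 0.116).

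Among the upstream kinases and transcription factors, of which 28 were measured at P0.5, 4 rose and none fell in frontal KO tissue, 3 rose and none fell in parietal, 1 rose and 1 fell in occipital, and 3 rose and 3 fell over the regions. The medians were 0.07, 0.03, 0.02 and 0.03, again beside 7.52%, 1.81%, 1.34% and 7.46% of all genes called. Camk2a, the alpha subunit of calcium and calmodulin kinase II, was called higher in KO in each region. It rose by 0.44, 0.63 and 0.48 in frontal, parietal and occipital tissue, with no overlap in any. In these regions 12.9%, 7.41% and 6.26% of all genes had no overlap. Over the regions Camk2a rose by 0.51 (adjusted p 1.25e-05). The frontal and occipital calls each held in 13 of 17 alternatives, the frontal one not with the Y-linked covariate, the olfactory receptor covariate or the replicate block (adjusted p 0.0587, 0.141 and 0.0573) and not without WT replicate 4 (adjusted p 0.0612), and the occipital one not without KO replicate 1 or WT replicate 1, 2 or 3 (adjusted p up to 0.0963), while the call over the regions held in every alternative tried. Mrtfb, a coactivator of SRF, rose over the regions by 0.30 (adjusted p 4.02e-04). Those that fell over the regions were Mef2c (-0.28, adjusted p 0.0155), Camk2b (-0.19, adjusted p 0.0269) and Creb1 (-0.22, adjusted p 0.042). These calls held in 15, 10 and 10 of 17 alternatives. Mef2c also fell in occipital tissue (-0.54, adjusted p 0.0203), which held in 12 of 17. Of the 9 AP-1 and EGR partners and corepressors, 1 was called between KO and WT, the EGR corepressor Nab1, which was 0.52 lower in occipital KO tissue (adjusted p 0.00654), with 8.69 to 8.79 in occipital KO and 9.08 to 9.56 in occipital WT arrays. Nab1 also differed between WT regions, by -0.62 in frontal minus occipital (adjusted p 4.38e-04) and -0.45 in parietal minus occipital tissue (adjusted p 0.0381), and these comparisons share the occipital WT arrays. Its KO minus WT difference was 0.62 greater in frontal than in occipital tissue (adjusted p 0.0488), a call that held in 10 of 24 alternatives, and the parietal minus occipital one held in 7 of 17. The related Nab2 was 0.29 lower in WT frontal than in WT occipital tissue (adjusted p 0.0364), which held in 9 of 17 alternatives. Of 11 heat shock and stress genes none was called in any of the 3 regions (2, 3 and 3 had an unadjusted p under 0.05), and over the regions Ddit4 rose by 0.19 (adjusted p 0.0456) and Hsph1 fell by 0.22 (adjusted p 0.0215), calls that held in 1 and 3 of 8 fits without the arrays of 1 number and in 6 and 12 of all 17 alternatives. At E14.5 none of the 4 lists was called in any gene, with 1, 3, 1 and 1 genes at an unadjusted p under 0.05.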

How the data were processed

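RNA of 30 samples was hybridised to Affymetrix arrays, 6 of them of stage E14.5 and 24 of stage P0.5. The authors deposited log2 signals per probe set; per the submitters' processing notes, Affymetrix Expression Console 1.1 and RMA were used, with the role of each not given in the sources used here. The label protocol names 1 array type for all samples, but the E14.5 probe set names are those of an older type, so the stages were fitted apart. Values were used as deposited, with array medians of 5.12 to 5.15 on the E14.5 arrays and 7.42 to 7.52 on the P0.5 arrays. RMA shares information among the arrays of a table, which are then not fully independent. Background levels and saturation are not given with summarised signals, and precision is limited by how many arrays there are.

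Probe sets with 1 gene symbol (34958 of 45101 at E14.5 and 21789 of 35557 at P0.5) gave 18194 and 19938 genes. Probe sets with several symbols (932 and 1621) or none (9211 and 12147) were left out. Groups were compared with limma 3.58.1 in R 4.3.3 (lmFit, and eBayes with an intensity trend), two-sided, with Benjamini-Hochberg adjustment over all genes and a threshold of 0.05. The P0.5 regions came from 1 fit of 24 arrays in 6 groups. Differences over the regions compare 4 KO with 4 WT means of 3 same-numbered arrays. With the Y-linked or the olfactory receptor covariate these differences came from the fit of 24 arrays instead. The model was tested on simulated data. The labels do not say that arrays came from separate animals, so p-values measure the spread between these arrays, and they give no sex, batch or scan date.

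The 9 members and all lists were chosen with earlier results of these data known. Named genes are the members, for Fos and Arc the 5 genes with the highest correlation, Tbr1 and Y-linked genes as label checks, and for each list at most 4 called genes in a comparison. The genes closest to Fosl2 and Jun, and the upstream genes that fell over the regions, were named outside this rule. Replicate numbers were checked for pairing by the correlation of same-numbered arrays' deviations from their group means: all 3 pairs at E14.5 (0.125 to 0.445) and all 4 of WT parietal with WT occipital tissue (0.124 to 0.276) exceeded 0.1 and were taken as paired, and the other comparisons were not. The differences, intervals and p-values given for the comparisons taken as paired come from fits without the pairing. The replicate block was run as an alternative only. Promoters came from RefSeq tables on GRCm38.p6. Alternatives were all probe sets of a gene averaged, a filter that drops the 30% of genes with the lowest mean, centring of arrays on their medians, eBayes without the trend, array weights, a replicate block, only the arrays compared, a Y-linked covariate, an olfactory receptor covariate chosen after seeing the data, and leaving out each array.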

Additional observations from a re-analysis of the deposited data

Results flagged for a closer look

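Of 54 tests for an array far from the others of its group of 4, 5 passed Dixon's 95% critical value, and chance passes about 1 in 20 groups. Fosb was 7.18 in parietal WT replicate 2, where the nearest array was at 7.39. Jun was 8.58 in parietal KO replicate 3, where the nearest was at 8.86, and Egr2 was 6.59 in parietal KO replicate 2, with the nearest at 6.80. Egr1 was 6.91 in frontal KO replicate 4, with the nearest at 7.37. Nr4a1 was 7.62 in parietal KO replicate 4, with the nearest at 7.74. Each of the 5 was the lowest of its group.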

How the results depend on the processing

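Of 1841 repeats of a member's comparison under another setting, 1823 kept the call or its absence, 8 lost a call, 10 gained one and none reversed a called direction. Sign was read from called values only, and 142 of 1780 repeats uncalled under both settings had the other sign. The number of members called in frontal tissue was 1 and became 2 with array weights, with only the arrays compared and with the replicate block in that fit, each time adding Fosl2. In parietal tissue 0 became 1 (Fosl2) with only the arrays compared and with the replicate block. Over the regions 1 became 0 with the Y-linked covariate, in a fit of the 24 arrays and not of their means. For frontal against occipital, the 0 members became 2 with array weights (Jun 0.66 and Nr4a1 -0.37), and for frontal against parietal 0 became 1 (Jun 0.60). In WT frontal against occipital tissue 1 became 0 with the replicate block, with only the arrays compared and with the olfactory receptor covariate. Leaving out single arrays gave 0 to 1 members for frontal against occipital and 0 to 1 in WT frontal against occipital tissue. The cause was not tested in these cases. The block changed no other member's call, including the E14.5 and WT parietal against occipital comparisons (0 members called with it). Those were taken as paired from the correlations of same-numbered arrays, and the labels do not state a pairing. Genes called over the whole table ranged over all settings from 0 to 30 at E14.5, 247 to 2606 in frontal (1499 as reported), 237 to 1241 in parietal (361), 122 to 664 in occipital tissue (267), 824 to 2090 over the regions (1488), 12 to 530 for frontal against occipital (83), 287 to 1917 in WT frontal against occipital (1202), 0 to 47 for frontal against parietal (2), 24 to 134 in WT frontal against parietal (34), 0 to 17 for parietal against occipital (2) and 46 to 452 in WT parietal against occipital tissue (90). Single arrays moved these counts by over 1.5 times. The count was 30 without E14.5 KO replicate 3. In frontal tissue it was 788, 749, 2454, 944 and 876 without KO replicates 1 and 4 and WT replicates 1, 3 and 4, in parietal tissue 237 without KO replicate 4, and in occipital tissue 155, 122 and 127 without KO replicate 3 and WT replicates 2 and 3. Over the regions it was 963 and 989 without KO replicates 1 and 4. In WT frontal against occipital tissue it was 1917, 766 and 545 without frontal replicates 1, 3 and 4, and 441 and 556 without occipital replicates 2 and 3. In WT frontal against parietal tissue it was 69 and 63 without frontal replicates 1 and 3, and in WT parietal against occipital tissue 57 without occipital replicate 4 and 55, 46 and 47 without parietal replicates 2, 3 and 4. For frontal against occipital 11 of 16 such fits moved it that far, from 29 to 187. The 3 or 4 arrays a group set the width of the intervals given.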

Other observations

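Among genes chosen after their values were seen, the occipital KO arrays split in the same way for Fosl2, Nr4a2 and Nr4a3. Fosl2 read 9.20 and 9.20 in replicates 1 and 3 and 8.25 and 8.40 in replicates 2 and 4. Nr4a2 read 10.06 and 9.70 in replicates 1 and 3 and 8.77 and 8.60 in replicates 2 and 4. Nr4a3 read 9.56 and 9.27 in replicates 1 and 3 and 8.68 and 8.97 in replicates 2 and 4. With group means removed, the genes closest to Fosl2 over the 24 P0.5 arrays were Ddit4l (r 0.818) and Car10 (0.79).

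The genes closest to Jun in the same way, also chosen after seeing the values, were Plek (r 0.757), Mpeg1 (0.738), Plcd4 (0.737), Clec5a (0.733) and Lgmn (0.731). Mpeg1 encodes a perforin-like protein of macrophages and Clec5a a receptor of myeloid cells.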
